A study of Homo sapiens with 6 samples.

Results

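The enzymes and droplet proteins that turn fatty acids into triglycerides and phospholipids were followed in Huh-7 cells, a human hepatoma line, after 48 h in 20 mM metformin. This dose is that of the study's methods. The sample labels state none, and another passage of the paper names a higher dose for this comparison. A list of 42 gene symbols was matched to Ensembl gene IDs in GENCODE 44. Of these, 40 were found among the 35840 genes of the expression table, and CIDEB and LPCAT2 were not analysed here. The metformin group had 3 RNA-seq libraries, numbered 1 to 3, and the control group, kept without metformin (0 mM) for the same 48 h, had 3 libraries, numbered 4 to 6. Cells of both groups were starved before treatment. The methods speak in general of independent trials, but neither they nor the labels say that the libraries of a group came from separate cultures, so p-values may measure only technical spread between libraries, and a single hepatoma line stands for the liver cell.

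Glycerolipid synthesis starts when a fatty acid is placed on glycerol 3-phosphate by a GPAT enzyme. AGPATs add another acyl chain to give phosphatidic acid, lipins remove its phosphate to give diacylglycerol, and DGATs complete the triglyceride. Diacylglycerol is also the acceptor of the choline and ethanolamine head groups of phosphatidylcholine and phosphatidylethanolamine. Triglyceride leaves the endoplasmic reticulum in droplets coated by perilipins, and hepatocytes draw on these droplets by lipolysis and for export in lipoproteins.

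The library totals behind the FPKM values were 17241997 to 18464783 fragments in the metformin group and 17192221 to 17835152 in the control group. Fragments rebuilt in the genes of the table numbered 17131060 to 18344140 in metformin and 17076038 to 17715372 in control. Between 22456 and 23237 genes were above 0 in metformin libraries and between 24860 and 25163 in control libraries. Levels are given in FPKM (fragments scaled by exon length and by the fragments of the library), and a single fragment in a 1 kb gene was worth 0.0542 to 0.0582 FPKM. All 10 hepatocyte and hepatoma markers examined were detected, with a summed level of 1422 to 1562 FPKM in metformin and 2561 to 2586 FPKM in control. Macrophage and leukocyte markers (5 of 5 in the table, CD68 at 0 in every library) summed to 6.51 to 11.1 FPKM in metformin and 25.4 to 37.9 FPKM in control, most of it CD14. Stellate cell and fibroblast markers (5 of 5) summed to 2.58 to 4.37 FPKM in metformin and 6.16 to 6.91 FPKM in control. Endothelial markers (4 of 5, TEK at 0 in every library) summed to 0.352 to 0.450 FPKM in metformin and 0.2998 to 0.490 FPKM in control. Adipocyte markers (4 of 5) summed to 0.898 to 1.74 FPKM in metformin and 2.99 to 3.45 FPKM in control, nearly all of it CFD. LEP and FABP4 were at 0 in the metformin libraries. All libraries were made from the Huh-7 line, so these sums are not read as amounts of other cell types. The part of these marker differences in the results below was not tested. In bulk RNA, fewer cells expressing a marker and less RNA per cell cannot be told apart.

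Of the 40 genes, 32 reached a mean of 1 FPKM in at least one group and were tested with limma on log2(FPKM + 1) beside all 13094 such genes. The other 8 are given by their values. Fold changes on this scale understate the change of low genes. GPAM and HILPDA reached the minimum through the control group only. At a Benjamini-Hochberg adjusted p below 0.05, 9 of the 32 were higher with metformin, or 28.1%, against 28.9% of all genes tested. Another 13 were lower, or 40.6%, against 44.1% of all genes tested. The remaining 10 did not pass. The median log2 fold change was -0.03 over the 32 genes and -0.14 over all genes. Values of the groups did not overlap for 24 of the 32 (75.0%), against 76.7% of all genes. The counts of glycerolipid genes were thus close to those of the transcriptome as a whole. They also moved with the scaling of the libraries. Median-of-ratios factors gave 13 higher and 10 lower of the 32, against 5291 higher and 4357 lower of all 13094 genes. TMM factors gave 13 and 11, against 4892 and 4718 of all 13094 genes. These factors moved the median of all genes up by 0.20 and 0.15. The changes of individual genes are therefore best read against that shift.

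A differentially expressed gene (DEG) was one that also changed by more than 2-fold on the log2(FPKM + 1) scale. CHKA was the upregulated DEG among the 32 genes (3.13%, against 4.88% of all genes tested). The downregulated DEGs were GPAM, HILPDA, FITM2 and LPCAT3 (12.5%, against 10.7%). All 5 kept this call under each of 12 alternative settings. Over all genes there were 639 DEGs upregulated and 1401 downregulated, so that 31.3% were upregulated, a share that was 49.6% with quantile normalization, 51.7% with median-of-ratios factors and 46.4% with TMM factors.

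**Figure D1:**
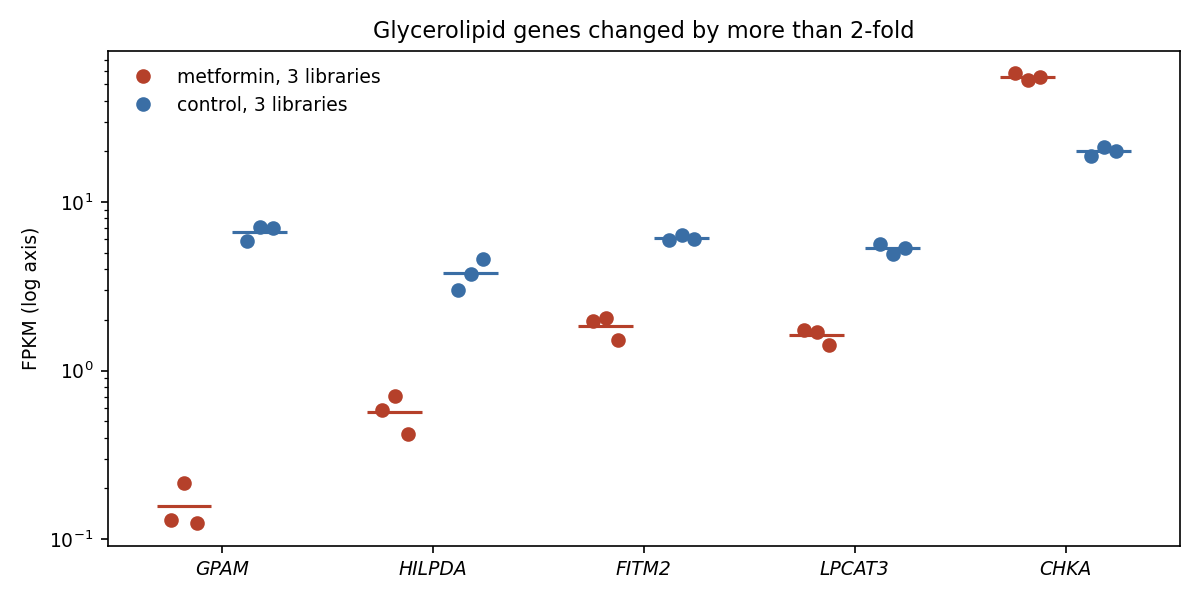
FPKM of the 5 glycerolipid DEGs in each library on a log axis, with the metformin libraries left of the control libraries of each gene and a line at each group's mean (3 libraries each). CHKA lies between 53.1 and 58.2 FPKM in metformin and between 18.7 and 21.4 FPKM in control, and GPAM lies below 0.22 FPKM in metformin against at least 5.88 FPKM in control.

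The DNA before the RefSeq start of the DEGs is shown because these genes had the largest fold changes among the 32 genes. RefSeq promoter entries (GRCh38.p14) were matched for 32 of the 42 symbols, among them 3 of the 5 DEGs. The 250 bases before the start of GPAM (chr10:112183766-112184015), FITM2 (chr20:44311203-44311452) and LPCAT3 (chr12:7018477-7018726), all on the minus strand and each ending at the base before the RefSeq start, are printed 5′ to 3′. Capitals mark GC boxes (GGGCGG) and CCAAT boxes (CCAAT) on either strand.
GPAM: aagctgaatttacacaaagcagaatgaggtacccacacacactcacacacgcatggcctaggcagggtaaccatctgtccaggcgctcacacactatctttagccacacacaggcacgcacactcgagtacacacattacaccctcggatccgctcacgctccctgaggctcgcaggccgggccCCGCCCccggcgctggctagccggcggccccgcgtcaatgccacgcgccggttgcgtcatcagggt
FITM2: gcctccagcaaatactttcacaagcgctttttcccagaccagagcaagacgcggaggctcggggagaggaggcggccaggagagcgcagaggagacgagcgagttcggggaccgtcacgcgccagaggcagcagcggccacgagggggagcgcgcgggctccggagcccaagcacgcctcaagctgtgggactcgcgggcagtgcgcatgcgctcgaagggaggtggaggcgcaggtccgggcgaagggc
LPCAT3: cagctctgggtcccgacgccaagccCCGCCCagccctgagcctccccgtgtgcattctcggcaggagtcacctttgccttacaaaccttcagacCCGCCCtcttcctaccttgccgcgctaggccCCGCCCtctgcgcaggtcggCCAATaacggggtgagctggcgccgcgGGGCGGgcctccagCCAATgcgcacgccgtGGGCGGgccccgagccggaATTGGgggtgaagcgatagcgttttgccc
The RefSeq start of GPAM lies inside the GENCODE 44 gene span, which begins further upstream at 112215377, so its window is not the DNA before the GENCODE start. The GPAM window held 1 GC box, the FITM2 window neither motif, and the LPCAT3 window 3 CCAAT boxes and 5 GC boxes. Over the 32 windows, 20 held GGGCGG and 11 held CCAAT, against 42.3% and 33.0% of 27305 promoters. CACGTG was in 1 window (6.49% of promoters), ACGTG, which CACGTG contains, in 3 (18.7%), and TCACNCCAC in the window of PNPLA2 alone (0.875%). TGACGTCA, TGATGNAAT and the direct repeat of nuclear receptors known as DR1 were in none (1.77%, 0.916% and 0.0183% of promoters). These letters are a description of the windows and not evidence of binding.

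GPAM, the glycerol-3-phosphate acyltransferase of the outer mitochondrial membrane, fell to near 0. Its level was 0.130, 0.215 and 0.124 FPKM in metformin libraries 1 to 3, against 5.88, 7.08 and 6.99 FPKM in control libraries 4 to 6. These values rest on 22, 39 and 21 fragments in metformin and 1005, 1238 and 1179 fragments in control. The metformin mean was 42.5-fold lower than the control mean, and the log2 fold change was -2.72 (SE 0.0908, adjusted p = 1.52e-06, limma). This log2 fold change ranked 33 from the lowest among the 13094 genes tested. In the count-based voom fit, which has no pseudocount of 1 FPKM, the log2 fold change of GPAM was -5.42 (SE 0.248, adjusted p = 1.35e-08). The gene lies on the minus strand at chr10:112149865-112215377 of GRCh38.

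Of the other acyltransferases of this first step, one rose and one did not pass. GPAT4, an enzyme of the endoplasmic reticulum, was at 10.9, 11.1 and 11.9 FPKM in metformin and 11.5, 10.8 and 11.03 FPKM in control, groups that overlap, with a log2 fold change of 0.02 (95% interval -0.11 to 0.16, adjusted p = 0.709). GPAT4 was higher with median-of-ratios factors (0.25, adjusted p = 0.00685) and TMM factors (0.19, adjusted p = 0.0247). GPAT3, also of the endoplasmic reticulum, rose to 9.68 ± 0.329 FPKM in metformin, against 7.23 ± 0.487 FPKM in control (SD over 3 libraries in each group), with a log2 fold change of 0.38 (adjusted p = 0.00125). GPAT2, a mitochondrial enzyme best known from the testis, was carried by 4 fragments in the metformin group and 15 in the control group and was not tested. As a description of the family, GPAM made up 0.738 ± 0.234% of summed GPAT FPKM in metformin and 26.6 ± 2.70% in control, whereas the sum was 21.2 ± 0.445 FPKM in metformin and 25.0 ± 0.258 FPKM in control.

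**Figure D2:**
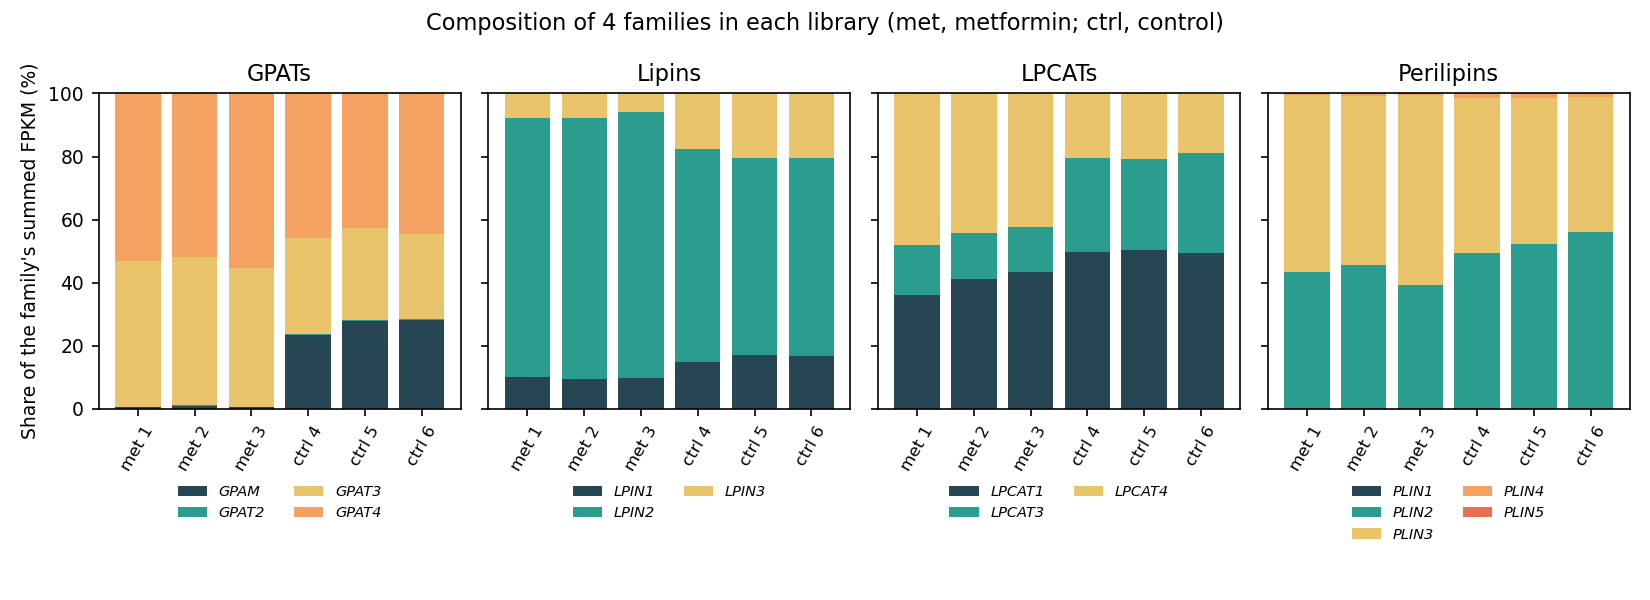
Share of each family's summed FPKM (percent) held by each gene in each library, metformin libraries left of control libraries, for GPATs, lipins, lysophospholipid acyltransferases (LPCATs) and perilipins. GPAM holds 0.579% to 1.01% of the GPAT sum in the metformin libraries and 23.5% to 28.2% in the control libraries.

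Among the lysophosphatidate acyltransferases, AGPAT2, the gene mutated in a congenital generalized lipodystrophy, was the most abundant. It was at 80.6, 72.3 and 77.3 FPKM in metformin and 76.2, 80.3 and 64.6 FPKM in control, groups that overlap (log2 fold change 0.06, 95% interval -0.14 to 0.26, adjusted p = 0.53). AGPAT2 was higher with median-of-ratios factors (0.30, adjusted p = 0.0169) and TMM factors (0.24, adjusted p = 0.0402). AGPAT1, a widely expressed enzyme of the same reaction, fell to 3.93, 4.49 and 3.95 FPKM in metformin, against 6.54, 7.09 and 7.38 FPKM in control (log2 fold change -0.64, SE 0.0728, adjusted p = 0.000152). AGPAT5, a mitochondrial member, was lower as well, with 9.70 ± 0.832 FPKM in metformin and 14.7 ± 1.19 FPKM in control (adjusted p = 0.000612). AGPAT3 was at 5.92 ± 0.443 FPKM in metformin and 6.79 ± 0.232 FPKM in control, and its call (adjusted p = 0.0496) was lost in 10 of 12 alternatives. It was lost without metformin library 2 (0.138) or 3 (0.112) and without control library 4 (0.138), 5 (0.0925) or 6 (0.0857). AGPAT4 stayed below 1 FPKM, with 36 fragments in metformin and 66 in control, and did not pass with voom (-0.80, adjusted p = 0.0585). PPT2-EGFL8 on the opposite strand shares 30.3% of the exon bases of AGPAT1. It was at 0 to 0.0105 FPKM in metformin and 0.0106 to 0.0729 FPKM in control.

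The lipins, phosphatidate phosphatases that make diacylglycerol and also act with transcription factors in the nucleus, moved in opposite directions. LPIN2 rose to 33.4, 36.4 and 37.5 FPKM in metformin, against 26.2, 21.6 and 21.5 FPKM in control (log2 fold change 0.61, SE 0.0865, adjusted p = 0.000478). LPIN3 fell to 3.18, 3.43 and 2.62 FPKM in metformin, against 6.84, 6.996 and 7.04 FPKM in control (log2 fold change -0.97, SE 0.0843, adjusted p = 4.3e-05). The mean of LPIN3 was 2.27-fold lower, just short of 2-fold on the log2(FPKM + 1) scale. LPIN1 fell to 4.202 ± 0.128 FPKM in metformin, against 5.77 ± 0.0475 FPKM in control (adjusted p = 0.000574). The groups did not overlap for any of these lipins, which was also so for 76.7% of all genes tested. LPIN2 held 83.1 ± 1.17% of summed lipin FPKM in metformin and 64.3 ± 2.74% in control.

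The diacylglycerol acyltransferases, which add the last acyl chain, lay between 5.01 and 7.96 FPKM in all libraries. DGAT2 was at 7.96, 6.86 and 5.98 FPKM in metformin and 7.21, 7.58 and 6.50 FPKM in control, overlapping groups with a log2 fold change of -0.03 (95% interval -0.27 to 0.20, adjusted p = 0.769). DGAT1 rose to 6.62, 7.01 and 6.71 FPKM in metformin, against 6.01, 5.01 and 5.13 FPKM in control (log2 fold change 0.29, adjusted p = 0.0097). HSF1 on the opposite strand shares 137 exon bases with DGAT1, or 3.32% of those of DGAT1. HSF1 was itself at 24.6 to 25.2 FPKM in metformin and 11.3 to 13.4 FPKM in control. None of the sources used here states whether counting used the strand.

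PLIN2 and PLIN3 were the perilipins expressed above 1 FPKM. PLIN2, the main droplet coat protein of hepatocytes, fell to 39.4, 39.7 and 32.5 FPKM in metformin, against 45.6, 51.7 and 54.5 FPKM in control (log2 fold change -0.44, SE 0.0966, adjusted p = 0.00459). With median-of-ratios factors this call was lost (log2 fold change -0.20, adjusted p = 0.092). PLIN3, a perilipin that moves between cytosol and droplets, was at 50.9, 47.2 and 50.2 FPKM in metformin and 45.6, 46.3 and 41.9 FPKM in control. These groups do not overlap, but the log2 fold change of 0.15 (95% interval 0.01 to 0.28) did not pass, with adjusted p = 0.0519. PLIN3 passed as higher with median-of-ratios factors (0.38, adjusted p = 0.00099), with TMM factors (0.32, adjusted p = 0.0022) and without metformin library 2 (0.18, adjusted p = 0.0484). As a description, PLIN2 held 42.5 ± 3.22% of summed perilipin FPKM in metformin and 52.3 ± 3.28% in control.

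PLIN1, PLIN4 and PLIN5 were below the minimum and were not tested on FPKM. PLIN4 was closest to it, at 0.284, 0.400 and 0.392 FPKM in metformin and 0.988, 1.0003 and 0.939 FPKM in control, from 124 and 333 fragments in the 2 groups. In the voom fit its log2 fold change was -1.45 (adjusted p = 3.05e-05). PLIN1, the coat protein of adipocyte droplets, averaged 0.179 ± 0.0316 FPKM in metformin and 0.281 ± 0.027 FPKM in control. PLIN5, known from oxidative tissues, averaged 0.144 ± 0.0474 FPKM in metformin and 0.217 ± 0.0438 FPKM in control. Neither PLIN1 (log2 fold change -0.64, adjusted p = 0.0786) nor PLIN5 (-0.61, adjusted p = 0.135) passed in the voom fit.

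Lipolysis of droplet triglyceride begins with the lipase PNPLA2 (ATGL), which ABHD5 activates and G0S2 and HILPDA inhibit. HILPDA, a small droplet protein also known as a hypoxia-inducible gene, was at 0.586, 0.706 and 0.420 FPKM in metformin and 2.99, 3.77 and 4.61 FPKM in control, with no overlap. Its counts were 21, 27 and 15 fragments in metformin and 108, 139 and 164 fragments in control. The mean was 6.64-fold lower and the log2 fold change -1.60 (SE 0.138, adjusted p = 4.2e-05). HILPDA lies on the plus strand at chr7:128455849-128458418.

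ABHD5, the coactivator, rose to 11.7 ± 0.836 FPKM in metformin, against 7.47 ± 0.216 FPKM in control (log2 fold change 0.58, SE 0.0656, adjusted p = 0.000156). PNPLA2 itself was at 13.3, 9.89 and 14.2 FPKM in metformin and 10.7, 10.4 and 7.54 FPKM in control, where metformin library 2 falls among the control values. Its log2 fold change of 0.35 (95% interval -0.03 to 0.73) did not pass (adjusted p = 0.0845). Without metformin library 2 it did (0.50, adjusted p = 0.0244), as it did with median-of-ratios factors (0.57, adjusted p = 0.0159), TMM factors (0.51, adjusted p = 0.0258) and voom (0.38, adjusted p = 0.0443). G0S2 averaged 3.28 ± 1.06 FPKM in metformin and 4.23 ± 0.822 FPKM in control (log2 fold change -0.30, adjusted p = 0.176), and it passed as lower without metformin library 2 (-0.50, adjusted p = 0.0221). MGLL, which splits monoacylglycerol, averaged 11.7 ± 3.74 FPKM in metformin and 9.69 ± 3.19 FPKM in control, with a 95% interval of -0.33 to 0.84. LIPE, the hormone-sensitive lipase of adipocytes, was carried by 1 fragment in metformin and 9 in control. ANO10 on the opposite strand shares 170 exon bases with ABHD5, or 2.25% of those of ABHD5. ANO10 was at 9.94 to 10.2 FPKM in metformin and 6.66 to 6.87 FPKM in control.

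FITM2, a protein of the endoplasmic reticulum needed for normal droplet budding, was the downregulated DEG among the genes of droplet formation. It was at 1.96, 2.05 and 1.53 FPKM in metformin and 5.99, 6.39 and 6.07 FPKM in control, from 451 and 1484 fragments in the 2 groups. The mean was 3.33-fold lower, with a log2 fold change of -1.33 (SE 0.0868, adjusted p = 1.22e-05). FITM2 lies on the minus strand at chr20:44302840-44311202. CIDEC, which promotes droplet fusion, averaged 1.4996 ± 0.341 FPKM in metformin and 1.22 ± 0.321 FPKM in control and did not pass (log2 fold change 0.17, 95% interval -0.16 to 0.50), although it did with quantile normalization (0.53, adjusted p = 0.0144). BSCL2, the gene of seipin, was untested at 0.306, 0.273 and 0.541 FPKM in metformin and 0.145, 0.113 and 0.176 FPKM in control, from 78 and 30 fragments. The voom fit gave it a log2 fold change of 1.28 (adjusted p = 0.00918), but its value is uncertain because its exons overlap other genes. A readthrough gene, at 0 to 0.0406 FPKM in metformin and 0 to 0.0287 FPKM in control, shares 20.5% of its exon bases. GNG3 on the opposite strand shares 447 exon bases with BSCL2. GNG3 was at 0.921 to 1.31 FPKM in metformin and 0.132 to 0.572 FPKM in control.

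The lysophospholipid acyltransferases return acyl chains to lysophospholipids and so set the chains of membrane lipids. LPCAT3, which places polyunsaturated chains, fell to 1.75, 1.68 and 1.42 FPKM in metformin, against 5.66, 4.94 and 5.37 FPKM in control, from 406 and 1318 fragments. Its mean was 3.29-fold lower, with a log2 fold change of -1.27 (SE 0.0806, adjusted p = 1.1e-05). LPCAT3 lies on the minus strand at chr12:6976185-7018477, where EMG1 on the other strand overlaps 66.0% of its exon bases. EMG1 was listed at 0.145 to 0.279 FPKM in metformin and 0.287 to 0.360 FPKM in control, and reads of the pair cannot be told apart without strand.

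LPCAT1, an enzyme known for saturated phosphatidylcholine of lung surfactant, fell to 3.995, 4.80 and 4.25 FPKM in metformin, against 9.40, 8.66 and 8.37 FPKM in control (log2 fold change -0.88, SE 0.0769, adjusted p = 4.52e-05). LPCAT4 rose to 4.86 ± 0.61 FPKM in metformin, against 3.54 ± 0.335 FPKM in control (log2 fold change 0.37, adjusted p = 0.0111). LPCAT4 held 44.8 ± 2.87% of their sum in metformin and 20.01 ± 1.11% in control, whereas LPCAT3 held 14.95 ± 0.782% in metformin and 30.1 ± 1.53% in control. The sum was 10.8 ± 0.904 FPKM in metformin and 17.7 ± 1.07 FPKM in control.

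In the choline and ethanolamine branches, the DEG was CHKA. It encodes choline kinase alpha, which phosphorylates choline in the first step of phosphatidylcholine synthesis. CHKA rose to 58.2, 53.1 and 55.2 FPKM in metformin, against 18.7, 21.4 and 20.1 FPKM in control. The ratio of means was 2.77 and the log2 fold change 1.42 (SE 0.0637, adjusted p = 3.32e-06), from 11395 and 4081 fragments. It lies on the minus strand at chr11:68052859-68121444. A lncRNA on the opposite strand shares 16.3% of its exon bases and was at 0.911 to 1.299 FPKM in metformin and 3.34 to 4.43 FPKM in control.

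The later enzymes of these branches did not move in one direction. PCYT1A, the rate-limiting enzyme of this branch, which makes CDP-choline, averaged 5.48 ± 0.362 FPKM in metformin and 5.58 ± 0.376 FPKM in control (log2 fold change -0.02, 95% interval -0.19 to 0.15, adjusted p = 0.784). CEPT1, which joins either head group to diacylglycerol, averaged 3.43 ± 0.304 FPKM in metformin and 3.99 ± 0.0641 FPKM in control and narrowly did not pass (adjusted p = 0.0577), but was lower with voom (0.0386) and without metformin library 2 (0.0233). CHPT1, which joins phosphocholine to diacylglycerol and was taken from the wider list of choline enzymes after its values were seen, rose to 8.43 ± 0.704 FPKM in metformin, against 6.85 ± 0.673 FPKM in control (log2 fold change 0.26, adjusted p = 0.0261). The call of CHPT1 was lost without metformin library 2 (0.0795) or 3 (0.072), without control library 4 (0.0537) or 5 (0.0923), and with no filter (0.0597). PCYT2, which makes CDP-ethanolamine, fell to 11.1 ± 1.1 FPKM in metformin, against 16.2 ± 1.53 FPKM in control (log2 fold change -0.51, adjusted p = 0.00169). PEMT, the liver enzyme that methylates phosphatidylethanolamine to phosphatidylcholine, rose to 8.33 ± 0.268 FPKM in metformin, against 6.43 ± 0.15 FPKM in control (log2 fold change 0.33, adjusted p = 0.0011). CHKB was not tested on FPKM, at 0.423 ± 0.0603 FPKM in metformin and 0.24 ± 0.0597 FPKM in control. In the voom fit it passed as higher (log2 fold change 0.82, adjusted p = 0.0346), from 68 and 38 fragments. The readthrough CHKB-CPT1B shares 72.5% of the exon bases of CHKB. This readthrough was at 0.0755 to 0.115 FPKM in metformin and 0.0695 to 0.0893 FPKM in control. NPB on the opposite strand, which was not analysed here, shares 28.3% of the exon bases of PCYT2.

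Phosphatidylserine is made by exchange of head groups. PTDSS1, which uses phosphatidylcholine, was lower, at 10.4, 10.4 and 10.5 FPKM in metformin and 14.3, 12.2 and 12.8 FPKM in control (log2 fold change -0.30, adjusted p = 0.00474). The call was lost with median-of-ratios factors (-0.08, adjusted p = 0.337) and TMM factors (-0.13, adjusted p = 0.105). PTDSS2, which uses phosphatidylethanolamine, rose to 8.37, 8.38 and 7.67 FPKM in metformin, against 6.20, 6.16 and 5.75 FPKM in control (log2 fold change 0.38, adjusted p = 0.00104). PISD, the mitochondrial decarboxylase that makes phosphatidylethanolamine from phosphatidylserine, averaged 5.98 ± 0.799 FPKM in metformin and 4.68 ± 0.167 FPKM in control (log2 fold change 0.29, adjusted p = 0.0206). Its call was lost without metformin library 2 (adjusted p = 0.0534), without control library 5 (0.0681) or 6 (0.0516), and with no filter (0.0505).

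**Figure D3:**
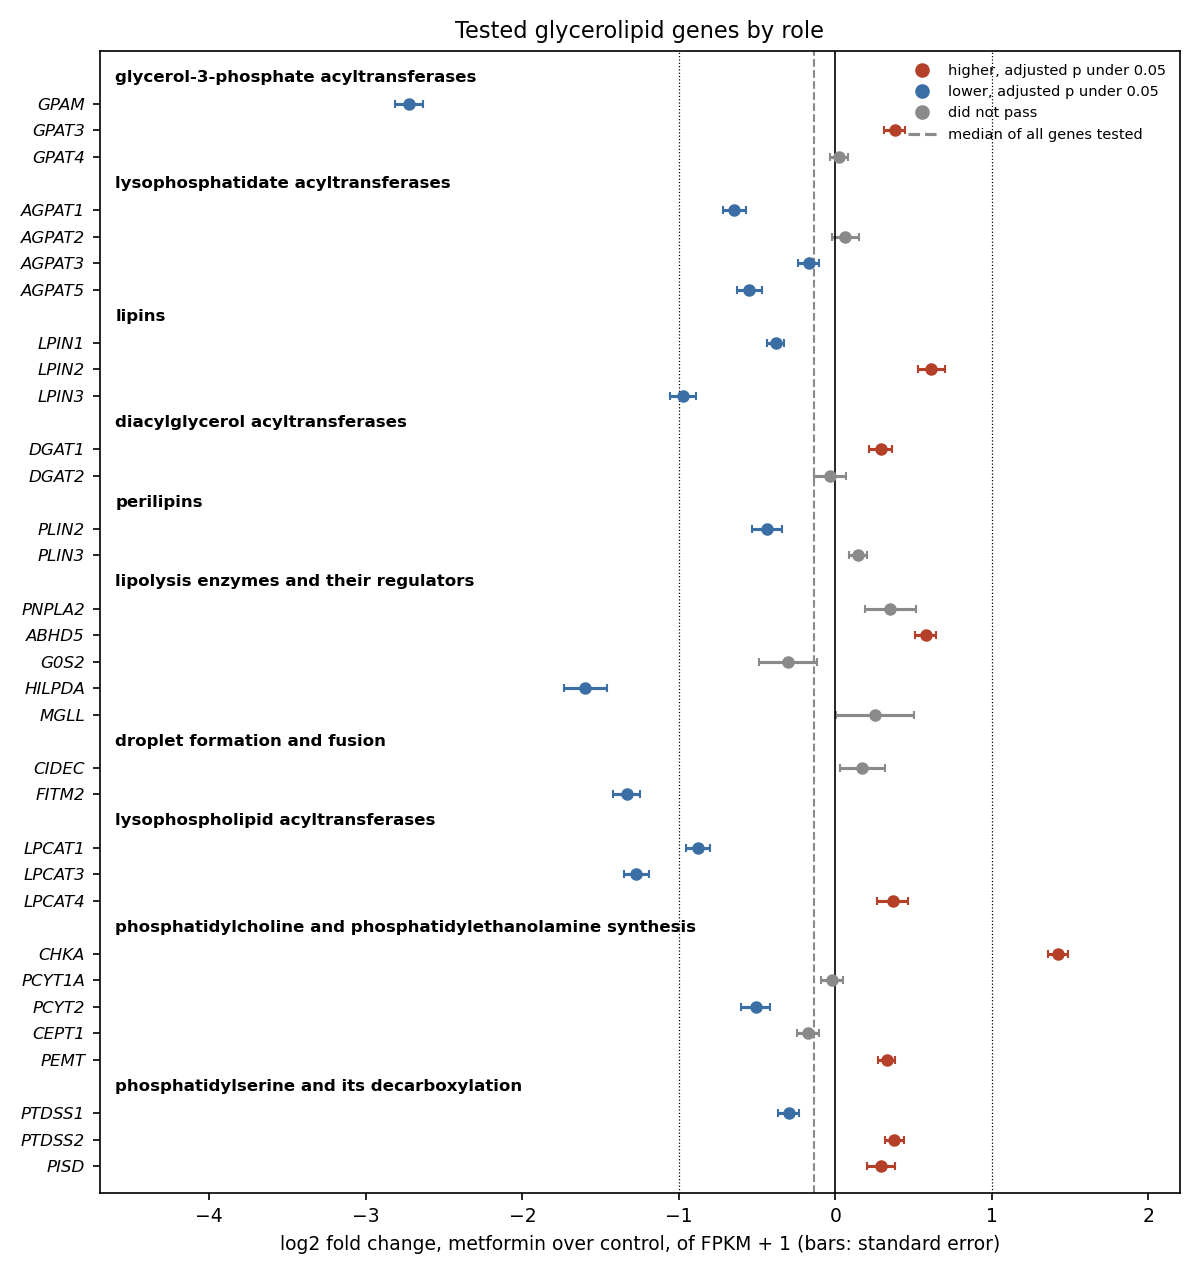
Log2 fold change (metformin over control, log2(FPKM + 1) scale) of the 32 tested genes, ordered by role, with bars for the standard error from limma, a dashed line at the median of all genes tested and dotted lines at -1 and 1. GPAM at -2.72 and CHKA at 1.42 mark the ends of the range, and most other genes lie within 1 log2 unit of 0.

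Genes next to these steps were counted in further lists, against the same shares of all genes (28.9% higher and 44.1% lower). Of 10 tested genes of glycerol 3-phosphate supply, monoacylglycerol acylation and diacylglycerol turnover, 4 were higher and 5 lower. PLPP1, a lipid phosphate phosphatase, rose to 11.5 ± 4.7 FPKM in metformin, against 3.65 ± 0.367 FPKM in control (log2 fold change 1.36), and MOGAT3, a monoacylglycerol acyltransferase, fell to 2.06 ± 0.234 FPKM in metformin, against 5.80 ± 0.145 FPKM in control (-1.16). In the CDP-diacylglycerol and cardiolipin branch, 2 of 8 were higher and 3 lower. TAFAZZIN, which remodels cardiolipin, rose to 8.09 ± 0.508 FPKM in metformin, against 4.44 ± 0.208 FPKM in control (0.74).

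Of 15 tested genes of other choline, ethanolamine and remodelling steps, 4 were higher and 4 lower. SLC44A2, a choline transporter-like protein, rose to 28.8 ± 4.59 FPKM in metformin, against 7.39 ± 0.764 FPKM in control (log2 fold change 1.82, adjusted p = 1.23e-05). Of 13 tested genes of other droplet and triglyceride proteins, 3 were higher and 8 lower. APOB, the structural protein of the lipoproteins that export triglyceride, fell to 52.6 ± 3.47 FPKM in metformin, against 191 ± 5.92 FPKM in control (-1.84). PNPLA3, a droplet protein of hepatocytes, fell to 0.632 ± 0.211 FPKM in metformin, against 3.48 ± 0.0533 FPKM in control (-1.46). PNPLA3 reached the minimum for testing through the control group only. LIPA, the lysosomal acid lipase, fell to 5.90 ± 0.846 FPKM in metformin, against 15.8 ± 0.336 FPKM in control (-1.29).

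Of 19 lipid transcription regulators, 9 were higher and 7 lower. PPARGC1A, a coactivator of oxidative metabolism, rose to 2.65 ± 0.173 FPKM in metformin, against 0.641 ± 0.112 FPKM in control (log2 fold change 1.16). PPARGC1A reached the minimum for testing through the metformin group only. INSIG1, which retains SREBP in the endoplasmic reticulum, fell to 30.6 ± 7.58 FPKM in metformin, against 64.8 ± 2.58 FPKM in control (-1.08). MLXIPL, a glucose-responsive factor, rose to 8.29 ± 1.4 FPKM in metformin, against 3.75 ± 0.342 FPKM in control (0.96).

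**Figure D4:**
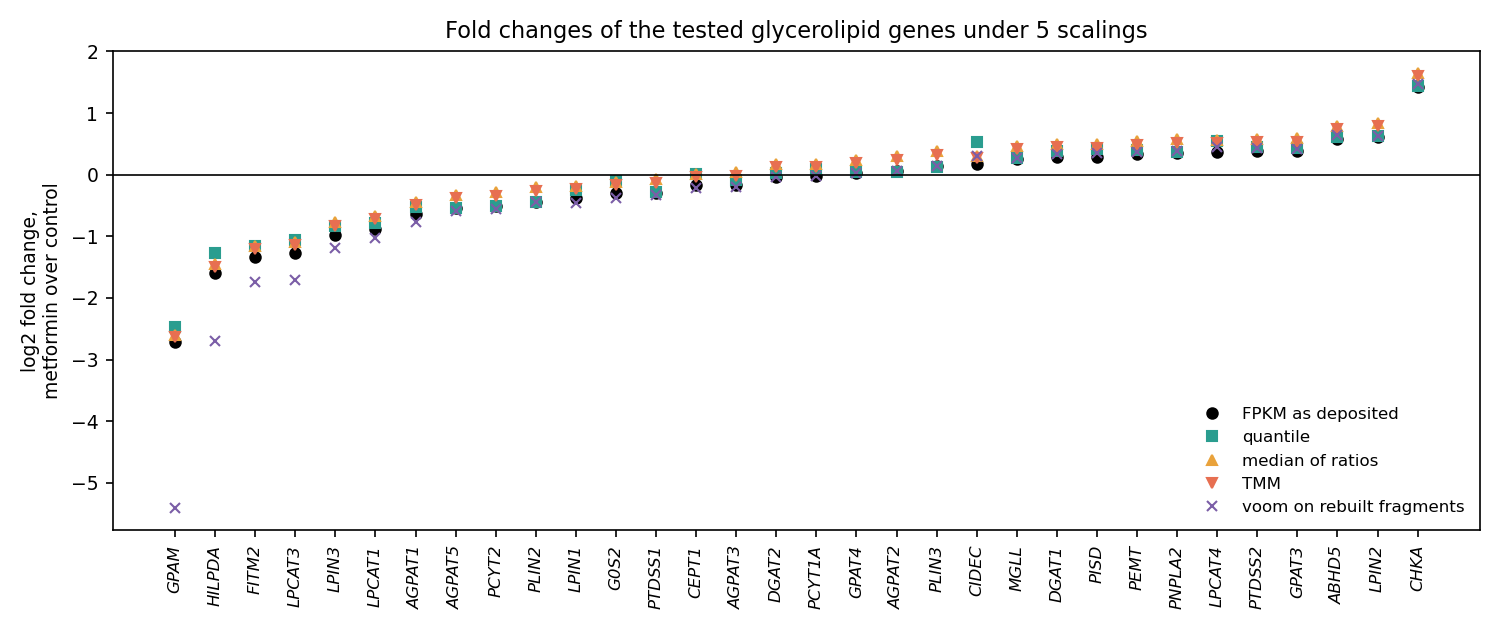
Log2 fold change (metformin over control) of the glycerolipid genes under 5 scalings of the libraries, 1 point a gene and scaling, ordered by the value on deposited FPKM. GPAM, HILPDA, FITM2 and LPCAT3 stay lower and CHKA stays higher throughout, whereas genes near 0 such as PCYT1A (-0.02 on deposited FPKM, 0.18 with median-of-ratios factors) cross it.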

How the data were processed

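RNA-seq libraries of Huh-7 cells were made by the authors, who removed low-quality reads, referred clean reads to GRCh38 (Ensembl release 87), and used Cufflinks 2.1.1. No source used here names the aligner. The deposited values are FPKM, computed by the authors per gene and library, with no further scaling between libraries. Whole fragments were rebuilt from the FPKM steps for 100% of the 31777 genes above 0.

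Gene symbols and shared exon bases came from GENCODE 44, whose exon lengths can differ from those behind the FPKM values. ABHD5 has 7539 exon bases in GENCODE 44 and 3172 behind its FPKM values, and BSCL2 has 7855 and 3965. Genes with a mean of 1 FPKM or more in either group were tested as log2(FPKM + 1) with limma 3.58.1 (R 4.3.3, trended variance, two-sided, Benjamini-Hochberg adjustment over 13094 genes), metformin minus control. The alternatives were a pseudocount of 0.1, no filter, quantile, median-of-ratios and TMM scaling, voom on rebuilt fragments (at least 10 in 3 libraries), and each library left out. Columns with no sample numbered 0. Values in every library were given for genes changed by more than 2-fold and, within each role, for the most abundant gene and the gene with the largest change. From each of the other pathway lists, up to 3 tested genes with the largest absolute log2 fold change were named, apart from CHPT1. They do not stand for the other genes of their lists. Genes and lists were chosen with earlier results of these data known.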

Additional observations from a re-analysis of the deposited data

How the results depend on the processing

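Of the 22 glycerolipid genes called, 18 kept their call under all 12 alternatives and AGPAT3, PISD, PLIN2 and PTDSS1 did not. GPAM ranged from -5.42 to -2.48 and CHKA from 1.38 to 1.66 (log2 fold change). The median over the glycerolipid genes was 0.0348 with quantile normalization, 0.18 with median-of-ratios factors, 0.12 with TMM factors and -0.12 with voom, where the median of all genes moved by 0.13, 0.20, 0.15 and -0.10. With voom, 2 genes were higher (CHKA, BSCL2) and 7 lower by more than 2-fold, out of 38 tested. Over all 15659 genes tested with voom, 1157 were higher and 3614 lower by more than 2-fold. Leaving out each library gave 8 to 10 of the 32 genes higher, 12 to 14 lower and a median of -0.06 to -0.00. In the same fits 3451 to 3748 of all genes were higher and 5324 to 5583 lower, out of 13098 to 13128 tested. Over all genes, DEGs numbered 998 upregulated and 2422 downregulated with the pseudocount of 0.1, 1157 and 3614 with voom, 909 and 924 with quantile normalization, and 1052 and 981 with median-of-ratios factors.

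Uncalled genes near 0 turned sign. With quantile normalization PCYT1A was 0.0898, DGAT2 0.0329 and CEPT1 0.0156. With median-of-ratios factors PCYT1A was 0.18, DGAT2 0.18, CEPT1 0.0157 and AGPAT3, called as lower on deposited FPKM, 0.0365. With TMM factors PCYT1A was 0.13 and DGAT2 0.12. With each library left out, PCYT1A ranged from -0.0636 to 0.0228, DGAT2 from -0.126 to 0.054, GPAT4 from -0.00915 to 0.0465 and AGPAT2 from -0.0281 to 0.126. The cause was not tested.

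No paired analysis was possible because the groups share no replicate numbers. Depth limits GPAM, HILPDA and the 8 genes below 1 FPKM, and with 3 libraries a group the intervals of genes such as MGLL are wide.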
